A study of Mus musculus with 12 samples.

Results

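ISG15 is a small ubiquitin-like protein that is attached to other proteins by its own chain of enzymes. Uba7 is the E1 that activates it, Ube2l6 is the E2 that carries it, Herc6 is the main E3 ligase in mice, and Usp18 is the protease that takes it off again. FAT10, encoded by Ubd, is a second interferon-regulated modifier, which marks proteins for the proteasome and is activated by the E1 Uba6 and carried by the E2 Ube2z. Ubd and the genes of the ISG15 chain are known as interferon targets in many cell types, while the enzymes of FAT10 also serve ubiquitin.

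The 6 genes Isg15, Uba7, Ube2l6, Herc6, Usp18 and Ubd were taken by name as the ISG15 conjugation system and FAT10, from 55536 genes in the tables. All 6 were among the 17919 genes tested, which had at least 10 reads in at least 4 libraries. They were followed in bulk total RNA-seq of primary mouse oligodendrocyte progenitors, named OPCs, which divide and later mature into the myelin-forming cells of the brain, and the question was how the cells answer the cytokine IFN-γ. Several brains of P4 to P6 pups were pooled for each culture, and the cells were grown in a proliferation medium with PDGFaa and bFGF. They were left untreated (Ctr), exposed to 1 µM dexamethasone, a synthetic glucocorticoid, for 48 h (Dexa), or given IFN-γ at 100 ng/ml over the same 48 h (IFNg). Each group has 4 labelled replicates, raised from separate litters. In the reporter line of the study a Cre under Sox10 control, a gene of the oligodendrocyte lineage, switches on EGFP, so the reporter marks the lineage rather than OPCs alone. The labels call every sample Sox10GFP+ OPCs, although the protocol allows either sorting for the reporter or CD140a magnetic beads, and they also enter EAE as mouse model for all samples, controls included. No immunisation of these pups is described.

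The 11 complete libraries held 19209063 to 52074652 reads in genes. The table of Dexa replicate 3 stops after 33.7% of its transcripts and lists 0 of the 6 genes, so Dexa has n = 3 throughout. Read counts divided by DESeq2 size factors are called normalized counts below, and TPM, which is scaled per transcript length, is used to compare genes with each other. All 8 OPC markers held at least 10 reads in every library, with a summed level of 809 to 1873 TPM in Ctr-OPCs and 676 to 1448 TPM in IFN-γ-treated OPCs. Their median log2 fold change with IFN-γ was -0.44, from -1.88 to 0.22, and 0 of 8 were called by DESeq2 (1 at an unadjusted p under 0.05) or edgeR, while 4 were called lower and 0 higher by DESeq2 with the replicate number as a term (replicate block). Of 8 microglia and macrophage markers, 2 held 10 reads in every library, and their summed level was 0.663 to 1.51 TPM in Ctr-OPCs and 1.12 to 1.88 TPM in IFN-γ-treated OPCs. The 5 T and NK cell markers together stayed at or under 0.157 TPM in every group. In bulk RNA, fewer cells of a type and less RNA per cell cannot be told apart.

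The modifiers themselves differ at the end of their coding sequence, where the pair of glycine codons through which each is conjugated lies. The ends below are taken from the GENCODE M21 transcripts Isg15-201 and Ubd-201 (GRCm38), with the glycine pair in capitals and the stop codon last.
Isg15: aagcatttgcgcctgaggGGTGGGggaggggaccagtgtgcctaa
Ubd: ctgacaacacactgcactGGGGGAtga
In Isg15 6 codons followed the pair, the stretch that has to be cut from the precursor before conjugation, whereas in Ubd 0 codons followed it. The coding sequences are of nearly equal length, with 161 codons in Isg15 and 162 in Ubd without the stop.

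The sequence before the start sites was read from RefSeq promoter windows (GRCm38.p6), which held 5 of the 6 genes, and Usp18 was not matched. The 250 bases before each start were searched on both strands for a pair of GAAA with 2 bases between them (the interferon-stimulated response element), AANNGAAA (the core bound by interferon regulatory factors, contained in the first) and TTCNNNGAA (the gamma-activated site), letters that were settled on with the windows in view. The 3 windows with a match are shown for their last 130 bases, on the strand of the gene and with matches in capitals.
Isg15 (chr4:156200819-156200948, minus strand): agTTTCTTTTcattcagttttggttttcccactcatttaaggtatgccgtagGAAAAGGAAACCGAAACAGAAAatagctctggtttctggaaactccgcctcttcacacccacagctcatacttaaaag
Uba7 (chr9:107975437-107975566, plus strand): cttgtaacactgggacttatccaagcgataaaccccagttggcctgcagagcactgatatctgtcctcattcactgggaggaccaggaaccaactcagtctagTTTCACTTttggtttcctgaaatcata
Ubd (chr17:37193762-37193891, plus strand): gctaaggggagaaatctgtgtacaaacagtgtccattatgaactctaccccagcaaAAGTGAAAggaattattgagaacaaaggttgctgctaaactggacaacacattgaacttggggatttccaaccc
The Isg15 window held this GAAA pair 3 times, overlapping one another from base -78 to base -57 before the start, while 2.98% of 32536 promoter windows of this length hold it at all. The core alone, which 21.3% of windows hold, was met from -27 to -20 in Uba7, from -74 to -67 in Ubd and once more in Isg15, from -128 to -121. These positions count from the RefSeq starts. The Uba7 window ends at base 107975566, past the GENCODE start of its coding transcript at 107975534. The Uba7 match therefore lies within the span of that transcript. The windows of Ube2l6 and Herc6 held none of the 3 motifs, and the gamma-activated site, found in 7.04% of all windows, was in none of the 5.

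IFN-γ raised all 6 genes. Of 17919 genes tested 8.02% were called higher in IFN-γ-treated OPCs than in Ctr-OPCs at an adjusted p under 0.05 by DESeq2, and 6.06% by edgeR. All 6 members were among those called by both tools. In each member every IFN-γ library lay above every Ctr library, a separation seen for 8.66% of all genes tested. Isg15 and Ubd reached 10 reads in 4 libraries only through the IFNg libraries. For these genes the filter itself favoured both the call and the separation. Ranked by log2 fold change over all genes, the 5 members with reads in Ctr-OPCs stood between position 69 (Isg15) and position 206 (Ube2l6).

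**Figure D1:**
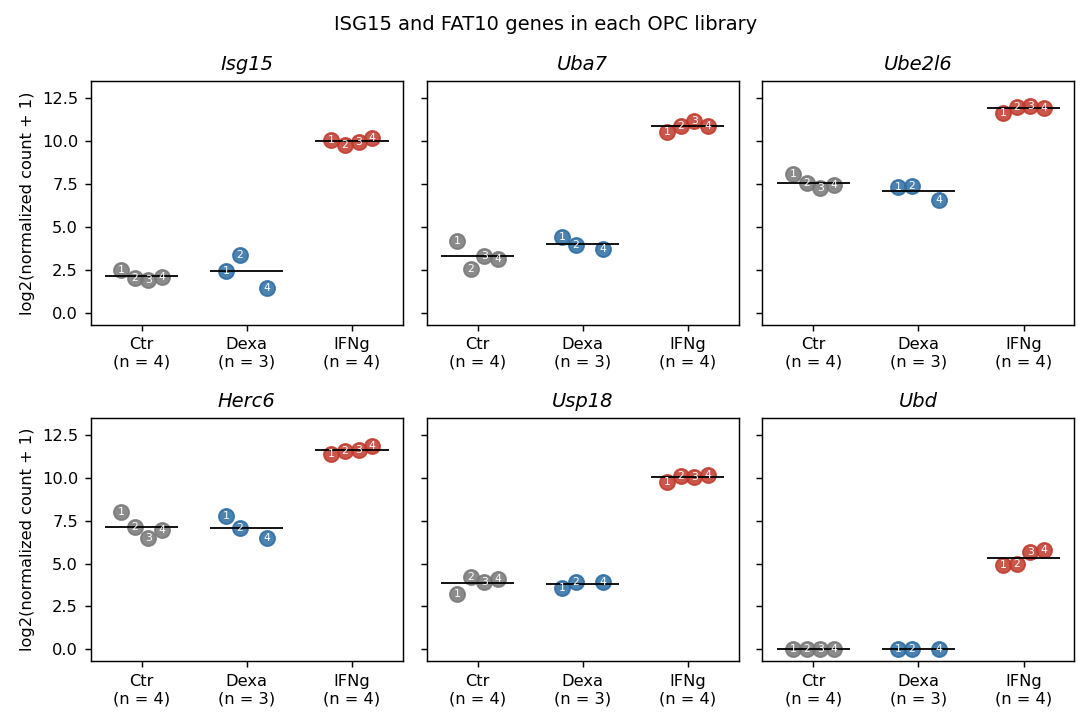
The vertical axis gives log2(normalized count + 1) of each gene in each library, with 1 point per library, its replicate number inside the point and a line at the group mean. The 4 IFNg libraries stand above all Ctr and Dexa libraries in each of the 6 panels, and Ubd is at 0 in all 7 libraries without IFN-γ.

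Isg15 (ENSMUSG00000035692), the modifier, lies on chromosome 4 from 156199424 to 156200818 on the minus strand and has 1 annotated transcript. Its normalized counts were 4.59, 3.10, 2.76 and 3.26 in Ctr replicates 1 to 4 and 1060, 872, 983 and 1170 in IFNg replicates 1 to 4. These Ctr values rest on 5, 5, 4 and 3 reads, so the gene was close to the floor of 3 reads in untreated cells, and it had at least 843 reads in each library after IFN-γ. The log2 fold change was 8.25 ± 0.39 (SE, adjusted p = 1.81e-99, DESeq2; 1.94e-08, edgeR), from a mean of 3.43 ± 0.804 to 1021 ± 125 normalized counts (SD, n = 4 each). A processed pseudogene on chromosome 17, AC151275.1, is 95.2% identical to Isg15 over 482 bases. It held a mean of 9.75 reads in Ctr-OPCs and 3.25 in IFN-γ-treated OPCs, so reads of the 2 could be exchanged in Ctr-OPCs, where both are low.

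Uba7 (ENSMUSG00000032596, chromosome 9, 107975505 to 107984060, plus strand), the E1, followed Isg15 in size of change. It held 17.4, 4.96, 8.95 and 7.60 normalized counts in Ctr replicates 1 to 4 and 1497, 1880, 2276 and 1892 in the IFNg replicates. Replicate 1 was the highest of the Ctr libraries and the lowest of the IFNg libraries. The fold change on the log2 scale was 7.64 ± 0.31 (SE, adjusted p = 1.98e-135, DESeq2; 5.32e-08, edgeR), and 8.06 without Ctr replicate 1.

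Ube2l6 (ENSMUSG00000027078, chromosome 2, 84798828 to 84810335, plus strand), the E2, was the member with the most reads before treatment. Normalized counts were 267, 185, 155 and 169 in Ctr-OPCs and 3216, 4017, 4201 and 3949 in IFN-γ-treated OPCs, in replicate order. Its lower level rested on 156 to 299 reads in each Ctr library, far more than that of Isg15 or Uba7. The gene rose by 4.31 ± 0.22 on the log2 scale (SE, adjusted p = 2.30e-85, DESeq2; 2.99e-07, edgeR), from 194 ± 50.2 to 3846 ± 433 normalized counts (SD, n = 4 each). Several genes hold stretches alike to Ube2l6, the longest being 508 bases of Gm17167 on chromosome 4 at 95.1% identity. The mean of Gm17167 was 76.5 reads in Ctr-OPCs and 25.8 in IFN-γ-treated OPCs. Far more abundant were D10Wsu102e (90.6% over 498 bases), Smchd1 (92.1% over 290 bases) and Ift46 (96.5% over 260 bases). Their means in Ctr-OPCs were 4129.5, 6221 and 1058 reads, and in IFN-γ-treated OPCs 3446, 6186.5 and 730. Whether reads of these genes were assigned to Ube2l6 was not tested.

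Herc6 (ENSMUSG00000029798, chromosome 6, 57581000 to 57664632, plus strand), the E3, resembled Ube2l6. Its normalized counts were 257, 141, 89.5 and 123 in Ctr-OPCs and 2704, 2981, 3104 and 3772 in IFN-γ-treated OPCs. Ctr replicate 1 was again the highest of its group and IFNg replicate 1 the lowest. The log2 fold change was 4.36 ± 0.34 (SE, adjusted p = 4.62e-36, DESeq2; 1.41e-05, edgeR), with 153 ± 72.8 against 3140 ± 453 normalized counts (SD, n = 4 each). A non-coding gene on the same strand, Gm45193, shares 688 identical bases with Herc6. Its mean was 12.5 reads in Ctr-OPCs, beside 113 to 280 reads of Herc6 per library. In IFN-γ-treated OPCs the mean was 60.5 reads, beside 2663 to 3158 of Herc6. Whether reads were exchanged between the 2 genes was not tested.

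Usp18 (ENSMUSG00000030107, chromosome 6, 121245906 to 121270917, plus strand) is the protease that removes ISG15 and also restrains type I interferon receptor signalling. It stood at 8.26, 18.0, 14.5 and 16.3 normalized counts in Ctr-OPCs and at 854, 1109, 1063 and 1145 in IFN-γ-treated OPCs. Here Ctr replicate 1 was the lowest of its group, opposite to the other members with reads in Ctr-OPCs. The gene rose by 6.17 ± 0.23 on the log2 scale (SE, adjusted p = 2.45e-154, DESeq2; 1.64e-08, edgeR). The long non-coding gene Gm44148 lies on the opposite strand of Usp18 and held a mean of 2 and 4.75 reads in the 2 groups.

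Ubd (ENSMUSG00000035186, chromosome 17, 37193892 to 37196095, plus strand), which encodes FAT10, was the least abundant member. It had 0 reads in all 4 Ctr libraries and 30, 32, 43 and 43 reads in IFNg replicates 1 to 4, which is 29.8, 30.2, 50.1 and 55.2 normalized counts. No read was found among 167036736 in Ctr-OPCs, which allows a level of up to 0.0180 RPM (reads of a gene scaled to the library's total), against 0.873 to 1.62 RPM in the IFNg libraries. This limit covers counting error only, since the reads carry no molecular identifiers. Set against a floor of 3 reads in each Ctr library, Ubd was at least 16.6-fold higher (adjusted p = 8.45e-12, DESeq2; 9.84e-04, edgeR). With the replicate block the call was lost in DESeq2 (adjusted p = 0.0709), in a fit that called 15.2% of all genes higher and 14.1% lower, and held in edgeR (adjusted p = 4.52e-04).

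Changes within a replicate number ran in the same order on average. Isg15 rose by 7.85 to 8.49 on the log2 scale over the 4 pairs, Uba7 by 6.42 to 8.57, Usp18 by 5.95 to 6.69, Herc6 by 3.39 to 5.12 and Ube2l6 by 3.59 to 4.76. Replicate 1 gave the smallest change for Isg15, Uba7, Ube2l6 and Herc6 and the largest for Usp18. The difference between Isg15 and Uba7 was 0.50 ± 0.76 (SD, n = 4 pairs, exact sign-flip test, two-sided p = 0.25), and that between Herc6 and Ube2l6 was 0.13 ± 0.29 (p = 0.5, same exact test). Both lay within the spread of the pairs. Isg15 exceeded Ube2l6 by 3.91 ± 0.26 and Usp18 exceeded Herc6 by 1.78 ± 1.03, each in 4 of 4 pairs, where p = 0.125 is the smallest value that this exact test can give with 4 pairs. None of the 10 pairs of genes could therefore pass a threshold of 0.05.

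**Figure D2:**
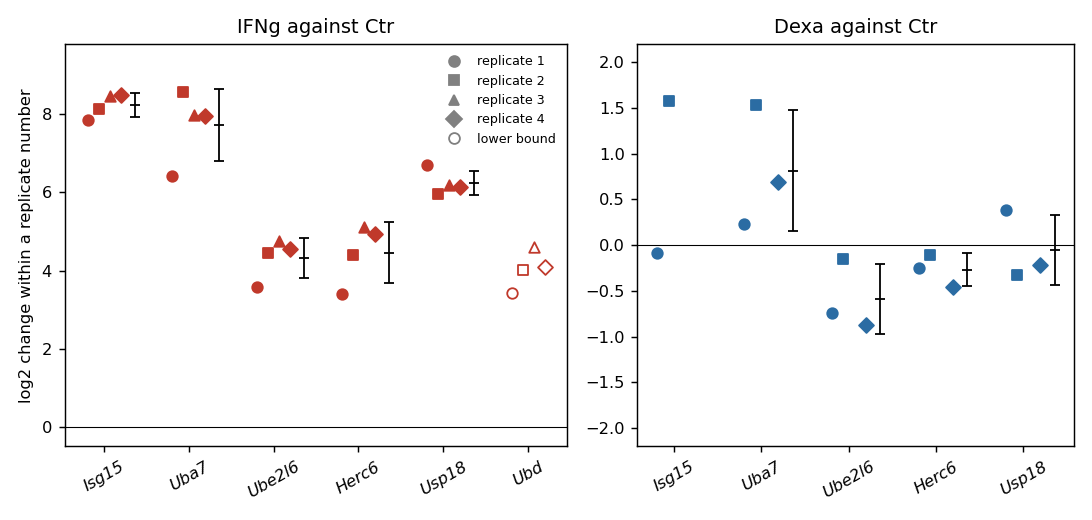
The vertical axes give the log2 change of normalized counts between libraries of the same replicate number, for IFNg against Ctr (left) and Dexa against Ctr (right), with the mean ± SD beside genes with at least 3 values. With IFN-γ all pairs lie above 0, the open symbols of Ubd are lower bounds against a floor of 3 reads, and with dexamethasone the pairs lie between -0.87 and 1.58, leaving out Isg15 in replicate 4, which had 3 and 1 reads, and Ubd.

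The members did not reach equal levels. Per length, Ube2l6 was highest after IFN-γ with 62.0 ± 8.30 TPM, followed by Isg15 with 38.7 ± 5.58 TPM (SD, n = 4 each), and these levels did not overlap with each other or with the next. Uba7 (18.7 ± 4.16 TPM), Herc6 (18.2 ± 2.90 TPM) and Usp18 (15.6 ± 2.97 TPM) overlapped, although Herc6 was above Usp18 in 4 of 4 libraries. These levels sum all transcripts of a gene, and the coding one held only 20.6% to 32.3% of the Uba7 TPM. Ubd lay far below them at 1.17 ± 0.345 TPM. In Ctr-OPCs the order was another one. Ube2l6 stood at 2.69 ± 0.551 TPM, Herc6 at 0.887 ± 0.460, Usp18 at 0.473 ± 0.211, Uba7 at 0.167 ± 0.118 and Isg15 at 0.114 ± 0.0186 TPM, with the ranges of neighbours from Herc6 to Isg15 overlapping. The E2 was thus the most abundant message in both states. The modifier moved from the fifth place by mean, where it overlapped with Uba7, to the second. The ratio of Isg15 to Ube2l6 in TPM was 0.0427 ± 0.00362 in Ctr-OPCs and 0.631 ± 0.118 in IFN-γ-treated OPCs (SD, n = 4 each). The ratio in Ctr-OPCs rests on 3 to 5 reads of Isg15 per library and is imprecise despite its small SD. The 6 genes together took 11.3 ± 3.51 RPM in Ctr-OPCs and 323 ± 33.8 after IFN-γ.

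Salmon shares a gene's reads among its annotated transcripts, and for Uba7 this division differed between the groups. The single protein-coding transcript of Uba7 was assigned 0 of 47 reads in Ctr-OPCs and 0 of 43 reads in Dexa-treated OPCs. By counting error alone, 0 of 47 allows a share of up to 6.39%. This limit does not cover reads that fit several overlapping transcripts, so the true share could be higher. In IFN-γ-treated OPCs the coding transcript took 32.1% to 45.7% of 6926 reads. Transcripts with a retained intron took 38.9% to 48.2% there, and those marked for nonsense-mediated decay 14.9% to 18.9%. A large part of the reads counted for Uba7 was therefore not assigned to a coding message in any group, and the coding transcript made up 20.6% to 32.3% of the gene's TPM after IFN-γ. For Usp18 the protein-coding share ranged from 53.3% to 88.9% in Ctr-OPCs, on 74 reads, and from 96.05% to 98.05% in IFN-γ-treated OPCs. The shares of Herc6 (77.4% to 88.6% against 87.6% to 89.0%) and Ube2l6 (96.1% to 100% against 97.2% to 98.6%) overlapped between the groups. Shares of reads among overlapping transcripts are estimates, and their error in the Ctr libraries is large at these counts.

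**Figure D3:**
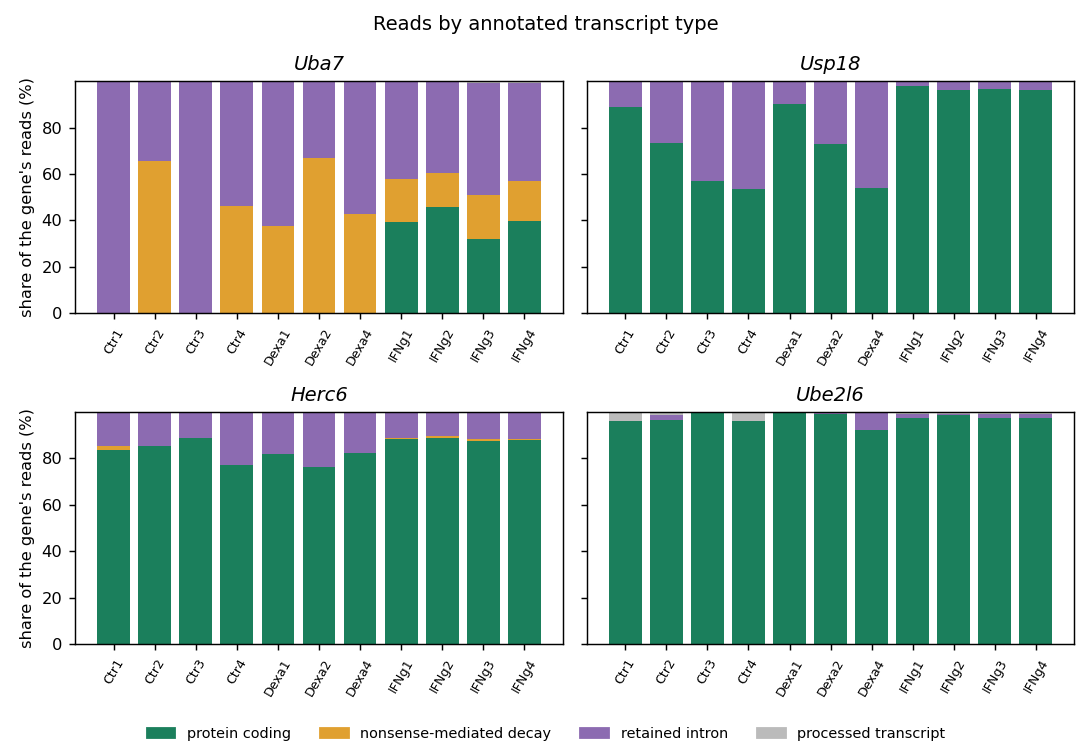
Bars give the percentage of a gene's reads assigned to each annotated transcript type in each library, stacked to 100%. The protein-coding share of Uba7 is 0 in every Ctr and Dexa library and 32.1% to 45.7% in the IFNg libraries, whereas Herc6 and Ube2l6 are mostly protein coding in all libraries.

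Isg15 and the 4 enzymes each had the largest log2 fold change among the tested relatives listed for them. Among 15 other modifiers tested, Ubd left aside, from the ubiquitin precursors to SUMO, NEDD8 and UFM1, only the ubiquitin precursor Ubb was called, with a log2 fold change of 0.34 ± 0.11 (SE, adjusted p = 0.0166, DESeq2; 0.0768, edgeR). The median of this list was 0.099, against -0.016 for all genes tested. Of 9 other E1 enzymes 2 were called higher by DESeq2 and 0 by edgeR, against 8.02% and 6.06% of all genes. The 2 were Nae1, part of the NEDD8 E1, at 0.32 ± 0.11 (adjusted p = 0.0404), and the ubiquitin E1 Uba1 at 0.17 ± 0.050 (adjusted p = 0.00797). Uba7 made up 0.0657% ± 0.0457 of the summed E1 TPM in Ctr-OPCs and 5.54% ± 1.58 in IFN-γ-treated OPCs (SD, n = 4 each), rising from the tenth place of 10 to the fourth to sixth. These shares count all transcripts of a gene, and the coding one held 20.6% to 32.3% of the Uba7 TPM after IFN-γ. The share of the coding transcript alone was not compared.

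Among 32 other E2 genes of the Ube2 family DESeq2 called 2 higher and 1 lower, against 8.02% and 4.83% of all genes. Ube2ql1 fell by 1.23 on the log2 scale (adjusted p = 1.73e-15), while Ube2e1 (0.22, adjusted p = 0.0438) and Ube2v1 (0.22, adjusted p = 0.0496) rose slightly, both not called by edgeR. Ube2l3, the closest relative of Ube2l6 and an E2 of ubiquitin, had a log2 fold change of -0.028 ± 0.049 (SE, adjusted p = 0.827, DESeq2), with 4898 ± 223 normalized counts in Ctr-OPCs and 4802 ± 94.4 in IFN-γ-treated OPCs. Ube2l6 went from 0.264% to 4.81% of the summed TPM of the 37 Ube2 genes.

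DESeq2 called 0 of 4 other Herc genes, with 2 at an unadjusted p under 0.05, and edgeR also called 0. Herc3, a relative of Herc6, had a log2 fold change of 0.24 ± 0.097 (SE, adjusted p = 0.0771, DESeq2), and with the replicate block it was called higher (adjusted p = 0.0122) and Herc2 lower (adjusted p = 0.0282). Herc6 rose from 1.89% ± 1.23 to 25.1% ± 1.77 of the TPM of the 5 Herc genes (SD, n = 4 each), from the last place to the first or second. Of 46 other Usp proteases 2 were called higher and 1 lower, against 8.02% and 4.83% of all genes. Usp25 rose by 0.81 ± 0.095 (SE, adjusted p = 7.74e-16, DESeq2; 1.51e-04, edgeR), Usp42 by 0.20 ± 0.065 (adjusted p = 0.0163, DESeq2) and Usp20 fell by 1.26 on the log2 scale (adjusted p = 0.0262, DESeq2), the last 2 not called by edgeR. With the replicate block DESeq2 called 1 higher and 2 lower of the other modifiers, 5 and 2 of the 32 Ube2 genes and 6 and 6 of the 46 Usp genes, and 3 higher and 0 lower of the other E1 enzymes. These counts stand beside 15.2% higher and 14.1% lower over all genes in that fit. Usp18 held 0.0653% of the TPM of 50 Usp genes in Ctr-OPCs and 1.92% after IFN-γ.

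**Figure D4:**
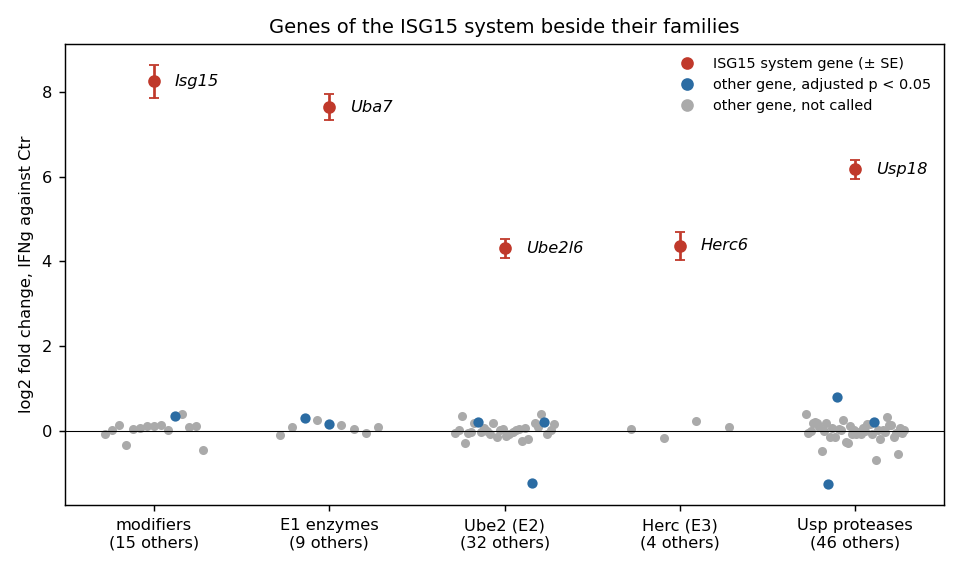
The vertical axis gives the DESeq2 log2 fold change of IFNg against Ctr, with Isg15, Uba7, Ube2l6, Herc6 and Usp18 in red (± SE), other genes of the same family in blue where the adjusted p was under 0.05 and in grey where not. The 5 named genes lie between 4.31 and 8.25 and all other genes of these families between -1.26 and 0.81.

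A list of ISG15 ligases and partners of Usp18 had 6 genes tested, of which 3 were called higher and 0 lower, with a median of 0.44. The shares over all genes were 8.02% and 4.83%. Trim25, a ubiquitin ligase that can also attach ISG15, rose by 2.18 ± 0.20 on the log2 scale (SE, adjusted p = 3.60e-26, DESeq2; 2.00e-05, edgeR), from 230 ± 20.8 to 1045 ± 266 normalized counts (SD, n = 4 each). Arih1, another ligase described for ISG15, had a log2 fold change of 0.19 ± 0.090 (SE, adjusted p = 0.188, DESeq2), and was called with the replicate block (adjusted p = 0.0218). Usp18 holds back signalling at Ifnar2 with the help of Stat2. Ifnar2 rose by 0.69 ± 0.12 (adjusted p = 2.27e-07, DESeq2) and Stat2 by 3.29 ± 0.12 (adjusted p = 1.92e-158, DESeq2). Itgal and Itgb2, the chains of the receptor for free ISG15, did not have enough reads to be tested.

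Among 11 proteins known to carry ISG15, 6 genes were called higher and 1 lower, with a list median of 0.34. Over all genes 8.02% were called higher and 4.83% lower. Those with large changes included Mx1, an antiviral GTPase (5.18 ± 0.56), Ddx58, the RNA sensor RIG-I (3.60 ± 0.19), and Eif2ak2, the RNA-activated kinase PKR (3.34 ± 0.27), all as log2 fold changes ± SE and called by both tools. Mx1 held only 1 to 4 reads per Ctr library, near the floor, and 42 to 81 per IFNg library. It passed the filter on reads only through the IFNg libraries, which favoured its call. By edgeR 5 of the 11 were called higher and 0 lower, against 6.06% of all genes called higher. With the replicate block DESeq2 called 8 higher and 1 lower, against 15.2% and 14.1% of all genes.

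The genes around FAT10 were listed by their roles. Of 8 genes that activate, bind or degrade FAT10, 1 was called higher and 0 lower, with a list median of 0.14. This count is near the share over all genes, 8.02% higher and 4.83% lower. Nub1, which brings FAT10 to the proteasome, rose by 1.10 ± 0.12 on the log2 scale (SE, adjusted p = 2.47e-18, DESeq2; 6.40e-05, edgeR), from 1863 ± 175 to 3999 ± 441 normalized counts (SD, n = 4 each). The E1 Uba6 had a log2 fold change of 0.10 ± 0.13 (adjusted p = 0.715, DESeq2) and the E2 Ube2z one of 0.17 ± 0.079 (adjusted p = 0.154, DESeq2). With the replicate block 4 of the 8 genes were called higher, against 15.2% of all genes in that fit.

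Upstream of the 6 genes, 6 of 8 interferon receptors, kinases and factors were called higher and 1 lower, with a list median of 2.22. Over all genes 8.02% were called higher and 4.83% lower, and 15.2% and 14.1% with the replicate block. Irf1 rose by 6.01 ± 0.10 on the log2 scale, Irf9 by 4.11 ± 0.15 and Stat2 by 3.29 ± 0.12 (SE), each called by both tools. The gene called lower was Ifngr1, a chain of the IFN-γ receptor, at -0.28 ± 0.093 (adjusted p = 0.0225, DESeq2; 0.0858, edgeR), named after its value was seen. Of 21 interferon genes 0 could be tested, and no library held more than 11 reads of any of them. Other cell type markers moved as well. The summed level of 5 neuron markers was 13.4 to 15.9 TPM in Ctr-OPCs and 27.1 to 59.99 TPM in IFN-γ-treated OPCs, but single genes went both ways. Of 4 neuron markers tested, with log2 fold changes from -0.46 to 1.57, Tubb3 and Syt1 were called higher and 0 lower, and with the replicate block 2 were called higher and 1 lower. Of 6 astrocyte markers, from -1.02 to 3.82, Gfap was called higher and 0 lower, and with the block 3 were called higher and 2 lower. The part of these genes, and of the OPC markers called lower with the block, in the changes of the 6 members was not tested.

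Neighbouring genes in the genome were compared to see whether they moved with the members. Of the 12 nearest protein-coding genes, 1 on each side, 8 were tested and 4 of these were called higher and 0 lower by DESeq2. Over all genes tested 8.02% were called higher and 4.83% lower in that fit. Serping1, which encodes the C1 inhibitor and lies 23383 bases from Ube2l6, rose by 9.17 ± 0.25 on the log2 scale (SE, adjusted p = 9.50e-286, DESeq2), more than any of the 5 members with reads in Ctr-OPCs. Inka1, 162 bases beyond Uba7, rose by 1.04 ± 0.26 (adjusted p = 9.19e-04), Tuba8 beside Usp18 by 2.42 ± 0.48 (adjusted p = 1.14e-05) and Ppm1k beside Herc6 by 0.47 ± 0.17 (adjusted p = 0.0416, DESeq2; 0.0904, edgeR). Without IFN-γ both Serping1 and Tuba8 were low. Serping1 held at most 12 reads in any Ctr library and 8 in any Dexa library, and Tuba8 at most 7 and 9. These 2 passed the filter on reads with the help of the IFNg libraries, which favoured their calls. Agrn, which lies 1935 bases from Isg15, had a log2 fold change of -0.29 ± 0.12 (adjusted p = 0.106, DESeq2). AW011738, Traip and Pyurf were not called, and Smtnl1, Slc6a13, Olfr93 and Olfr94 were too low to be tested. With the replicate block 7 of the 8 were called, Agrn lower and all others but Pyurf higher. The shares over all genes with the block were 15.2% higher and 14.1% lower.

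The genes with the most similar course over the 11 libraries were found by the root mean square difference of log2(normalized count + 1), each gene centred on its Ctr mean. For Isg15 these were C4b (0.401), Irgm1 (0.447) and the pseudogene BC023105 (0.518), and for Uba7 Cxcl9 (0.419), Gbp7 (0.456) and Gbp3 (0.552). Ube2l6 was closest to Tapbp (0.319), H2-T22 (0.330) and Mcub (0.339), and Herc6 to Gsdmd (0.287), Slc12a7 (0.288) and again Tapbp (0.292). Usp18 ran closest to Tnfrsf14 (0.276), Irf1 (0.281) and Strc (0.313), and among the genes closest to Ubd were B2m (0.266) and H2-D1 (0.305). Among the members themselves the smallest difference was that of Herc6 and Ube2l6 (0.345), and Isg15 and Uba7 differed by 0.583. For genes near 0 reads this measure depends on the added count of 1.

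Dexamethasone was compared with the untreated cells in the same way. DESeq2 called 0 of 6 members, with 0 at an unadjusted p under 0.05, and edgeR likewise called 0 with 0 at that level. Ubd had 0 reads in both groups and could not be called, and Isg15 rested on 1 to 11 reads per Dexa library. DESeq2 called 0.547% of all genes in either direction and 2.57% with the replicate block. Normalized counts of Ube2l6 were 160, 167 and 92.6 in Dexa replicates 1, 2 and 4, with a log2 fold change of -0.46 (95% interval -0.94 to 0.025). It was lower than the Ctr library of its number in 3 of 3 pairs, and with the replicate block its unadjusted p was 0.0164 and its adjusted p 0.299 (DESeq2). Herc6, with 217, 131 and 89.1 normalized counts, was also lower in 3 of 3 pairs, by 0.10 to 0.46 on the log2 scale. Its fold change over the groups was -0.058 (95% interval -0.79 to 0.67). That value includes Ctr replicate 3, which has no Dexa partner and was the lowest Ctr library for Herc6. Without Ctr replicate 3 it was -0.24.

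Uba7 held 20.5, 14.3 and 12.2 normalized counts in the Dexa libraries and was above the Ctr library of its number in 3 of 3 pairs, with a log2 fold change of 0.75 (95% interval -0.0093 to 1.52). Usp18 stood at 10.8, 14.3 and 14.0, with a fold change of -0.15 (95% interval -0.82 to 0.52). Isg15 stood at 4.32, 9.26 and 1.75 normalized counts, on 4, 11 and 1 reads, with a fold change of 0.81 (95% interval -0.24 to 1.85). These intervals are wide, and changes of the size that IFN-γ gave lie far outside them. Ubd had 0 reads among 89098734 in the 3 Dexa libraries, which allows up to 0.0337 RPM. Of 132 tested genes in the lists above, cell type markers left out, 0 were called by DESeq2 or edgeR. By either tool 3 of them, or 2.27%, had an unadjusted p under 0.05. Over all genes this share was 3.58% by DESeq2 and 3.13% by edgeR. Among the 132 genes, Usp29 and Usp54 were called higher in Dexa-treated OPCs by both tools with the replicate block. Of the markers, DESeq2 with the block called 1 higher and 0 lower in each of the OPC, astrocyte and neuron lists.

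Between the treatments, IFN-γ-treated OPCs held more of every member than Dexa-treated OPCs. DESeq2 called 6 of 6 higher, against 7.66% of all genes. The filter on reads again favoured this for Isg15 and Ubd. The IFNg libraries here are those compared with Ctr-OPCs above. The log2 fold change was 7.44 ± 0.40 for Isg15, 6.89 ± 0.33 for Uba7, 6.32 ± 0.30 for Usp18, 4.77 ± 0.24 for Ube2l6 and 4.42 ± 0.37 for Herc6 (SE). Ubd was at least 11.3-fold higher (adjusted p = 6.44e-08, DESeq2; 0.00260, edgeR), and with the replicate block its adjusted p was 0.145 in DESeq2 and 0.00131 in edgeR. The summed reads of the 6 genes were 9.63 ± 3.17 RPM in Dexa-treated OPCs (SD, n = 3).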

How the data were processed

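The 12 deposited RNA-seq tables of OPC cultures were used. Per the labels and the submitters' processing notes, the reads came from a stranded total RNA kit, and the notes name STAR, Salmon 0.8.2, DESeq2 and GRCm38 in no order. Whether Salmon used strand is not given in the sources used here. The deposited tables give an estimated count and a TPM value per transcript, and both were made by the authors. The authors' own DESeq2 comparison tables hold fold changes and p-values and were not used. Estimated counts were summed per gene with the GENCODE M21 annotation and rounded. Genes that reached 10 counts in 4 or more libraries entered 1 fit over 11 complete libraries (DESeq2 1.42.0, Wald test on the group, R 4.3.3), with Benjamini-Hochberg adjustment over all 17919 genes. The quasi-likelihood test of edgeR 4.0.16 with TMM factors was run beside it. Size factors ranged from 0.572 to 1.61. A count of 0 was bounded at 3 reads per library. Near copies were searched with BLAST 2.17.0 at 90% identity over at least 100 bases.

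The labels give the groups the same replicate numbers, and replicates come from different litters. Deviations from the group means correlated at 0.404 to 0.722 between all libraries of the same number, and at -0.614 to 0.495 between libraries of different number and group. The ranges overlap, but every same-number value was over 0.1, so the numbers were taken to pair the libraries, and a replicate block was added to the model in an alternative fit. No 2 libraries of a group agreed within sampling noise (chi-square per degree of freedom 23.6 or more). Other alternatives were TMM or upper quartile factors, other count filters, only the groups compared, and leaving out each library. Tests were tried on simulated data. The members and gene lists were chosen with earlier results of these data known. Named beside the 6 members were Arih1, Trim25, Uba6, Ube2z, Nub1, Ube2l3, Herc3, Uba1 and Ubb, at most 4 called genes of each other list by size of change, the nearest coding genes and the 3 most similar genes per member. Some genes that this rule names are not reported here.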

Additional observations from a re-analysis of the deposited data

How the results depend on the processing

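With IFN-γ against Ctr-OPCs or against Dexa-treated OPCs, 5 members were called, in the same direction, under every alternative run. Ubd was not called with the replicate block in DESeq2 (adjusted p = 0.0709 against Ctr-OPCs and 0.145 against Dexa-treated OPCs). Its log2 fold changes in that fit were 8.08 ± 3.54 and 7.52 ± 3.97 (SE). With 0 reads in cells without IFN-γ these are not measured changes, and only the lower bounds given above hold. The cause of the lost call was not tested, and with at least 50 counts in 4 libraries Ubd was not tested at all. The paired fits changed no other call of a member. The 0 calls for dexamethasone held under every alternative, where Ubd with 0 reads could not be called. The sign of 3 low or little changed genes turned when 1 library was left out. Leaving out 1 library at a time gave log2 fold changes of -0.015 (without Dexa replicate 2) to 1.07 for Isg15, of -0.46 to 0.32 (without Ctr replicate 1) for Herc6, which was also above 0 without Dexa replicate 2 (0.016) or 4 (0.19), and of -0.32 to 0.0009 (without Ctr replicate 2) for Usp18. Over all alternatives the change of Isg15 with IFN-γ against Ctr-OPCs ranged from 8.15 to 8.405, that of Uba7 from 7.38 to 8.06 and that of Herc6 from 4.18 to 4.74. Depth limits Isg15, Uba7, Usp18 and Ubd in cells without IFN-γ, where libraries held 0 to 29 reads of each gene.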
